A study of Mus musculus with 16 samples.

Results

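Among the regions where H3K27ac was higher in mouse multipotent progenitors (MPP) than in common dendritic cell progenitors (CDP), 3344 had no counterpart in any of the 3 lists made for the later steps of dendritic cell development. H3K27ac is an acetylation of histone H3 found at active promoters and enhancers. Each deposited list compares a pair of cell types and gives, for every region it holds, the signal of the 4 libraries involved. The 3344 regions were the autosomal regions of the MPP and CDP list that met the following conditions. The ratio of mean MPP to mean CDP signal, after adding 1 to each mean, was at least 2. The mean MPP signal was at least 100 and both MPP libraries lay above both CDP libraries. No region of the CDP and cDC, the CDP and pDC or the cDC and pDC list overlapped them by 1 bp or more. They are called unlisted MPP regions here. They made up 3344 of the 60816 regions of the MPP and CDP list, or 5.61% of its 59626 autosomal regions. The 3552 regions that met the same signal conditions but did overlap a region of a later list are called relisted MPP regions.

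The study profiled MPP, CDP and their dendritic cell progeny from C57BL/6 mice, namely the classical type (cDC) and the plasmacytoid type (pDC), with 2 H3K27ac libraries for each. All groups were sorted cells of that strain with no treatment or genotype given in the labels, and no age. No use was made here of the 4 input and 4 RNA samples. The labels do not say if the libraries of a group were made from different animals, so the spread between them may be technical.

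Multipotent progenitors can still give rise to all blood lineages, and they carry active chromatin at genes of several of them. Common dendritic cell progenitors are largely committed to making dendritic cells. On the way, enhancers used by stem and progenitor cells or by other lineages lose their acetylation, while those of the dendritic program gain it. The deposited lists are not restricted to clear differences. The authors' −log10 p went down to 0.301 in the MPP and CDP list and the CDP and cDC list, and to 0.319 in the other lists. It was under 2 in 27.8% of the autosomal regions of the MPP and CDP list, in 26.0% of those of the CDP and cDC list, in 17.8% for CDP and pDC, and in 20.7% for cDC and pDC. Being in a list is therefore not by itself a difference, and being missing from one does not show that the signal was equal or absent. No annotation of the mouse build mm9 was used here, so the regions are given by position and not by gene, and the cell types were not checked against marker genes.

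The regions were selected on the signals of all 4 MPP and CDP libraries, so their levels and ratios are a description and carry no test. With 2 libraries on each side, an exact permutation test (two-sided) could in any case not go below p = 0.333. The signals are the authors' values. They are larger in longer regions, so levels are also given per kb. The read depth behind them is unknown.

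One interval stood apart and touches every count below. With the autosomes laid over each other, the densest 2 Mb of the MPP and CDP list ran from position 85300001 to 87300000. Regions starting there were 6.4 times as dense in the MPP and CDP list as in the 5 Mb on either side. In the CDP and cDC list the factor was 6.38, in the CDP and pDC list 5.29 and in the cDC and pDC list 3.89. Unlisted MPP regions were 9.01 times as dense there, with 196.5 per Mb against 21.8 in the flanks. Of the 3344 regions, 393 lay in the interval, which is 11.8%, against 8.67% of all autosomal regions of the list and 9.86% of those listed as higher in MPP. They were spread over 17 of the 19 autosomes, 11 of which had 10 or more. Chromosome 1 had none, and no region of any of the 4 lists, in this interval, and chromosome 19 is too short to reach it.

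**Figure D1:**
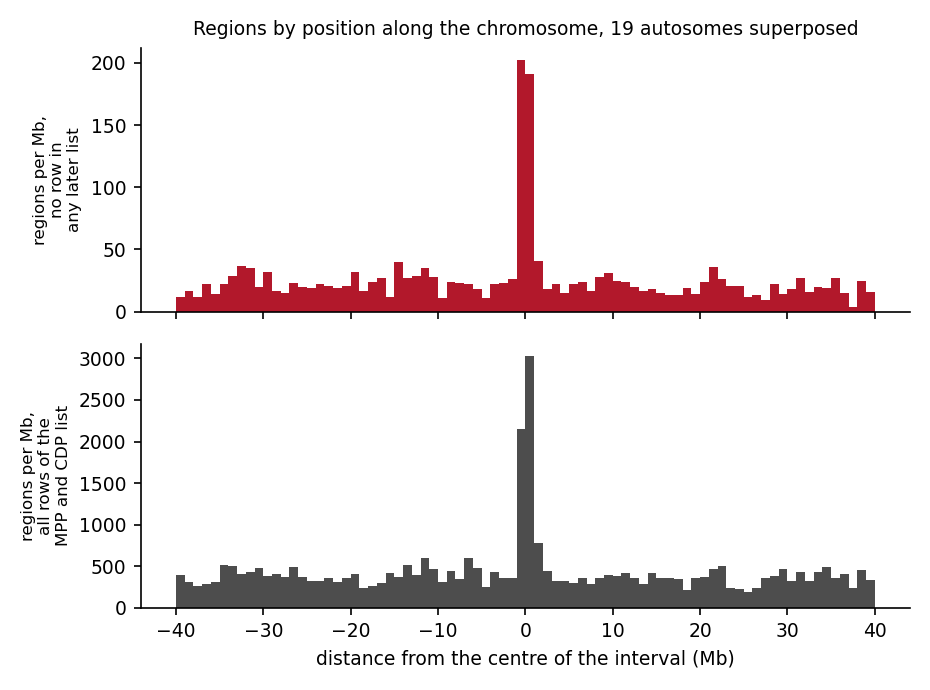
Number of regions per Mb against the distance from the centre of the interval in Mb, with the 19 autosomes laid over each other. The upper panel shows unlisted MPP regions and the lower panel all regions of the MPP and CDP list. Both panels rise in the central 2 bins, where the unlisted regions reach 202 and 191 per Mb. The next bin to the right is also raised, with 41 unlisted regions and 781 of all regions, against 18 and 448 in the bin after it.

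The 393 regions in the interval also differed in how the MPP libraries compared. The libraries carry no replicate number and are called first-listed and second-listed here. The first-listed MPP library was the higher one in 81.4% of them, against 58.8% of the 2951 unlisted regions elsewhere. The MPP libraries differed by 2-fold or more in 35.6% of the regions in the interval and in 5.63% of those elsewhere. The interval was chosen after the data were seen, and the part it plays in the results was not tested. Values without it are given for the main results, but regions were also denser just past its end, so these values may still hold part of the excess.

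Unlisted MPP regions were short and low, with a steep drop to CDP. Their median length was 500 bp, with quartiles of 400 and 800 bp and a longest region of 8850 bp. The first-listed MPP library had a median signal of 210 and the second-listed 183, against 50 and 55.5 in the CDP libraries. The median ratio of MPP to CDP was 3.92, with quartiles of 2.83 and 6.09. The lower of the MPP libraries was at least 2-fold above the higher of the CDP libraries in 73.3% of the regions. This share uses the values that chose the regions. It was not taken over other regions, so it does not set the unlisted ones apart. Both MPP libraries lay above both CDP libraries in all of them by selection, and in 59.6% of all autosomal regions listed as higher in MPP. The authors' −log10 p was at least 10 in 2859 of them, or 85.5%, against 92.2% of the relisted MPP regions, 40.7% of all regions listed as higher in MPP and 36.5% of all autosomal regions. These p-values come from the same signals and add no independent evidence. Outside the interval the median ratio was 3.94 and the median length 550 bp. If the autosomal totals of the 4 libraries were made equal, the median log2 ratio of all autosomal regions of the list went from 0.12 to -0.02 and that of the unlisted regions from 1.97 to 1.85.

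Relisted MPP regions were longer and stronger, and fell less steeply. Their median length was 1050 bp, and their median mean MPP signal was 593 against 195 in the unlisted regions. Per kb, the median MPP signal was 538.4 in relisted and 367.2 in unlisted regions. As a ratio the difference was wider in CDP, where the medians per kb were 195.9 and 98. The median ratio of relisted regions was 2.57. A ratio of 10 or more was reached by 363 unlisted regions, 10.9% of them, and by 34 relisted regions, or 0.957%. Of all 32366 autosomal regions listed as higher in MPP, 1.75% reached it. At the other end, 1118 relisted regions had a mean MPP signal of 1000 or more, compared with 89 unlisted ones. These contrasts use the values that chose the regions and were not tested.

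**Figure D2:**
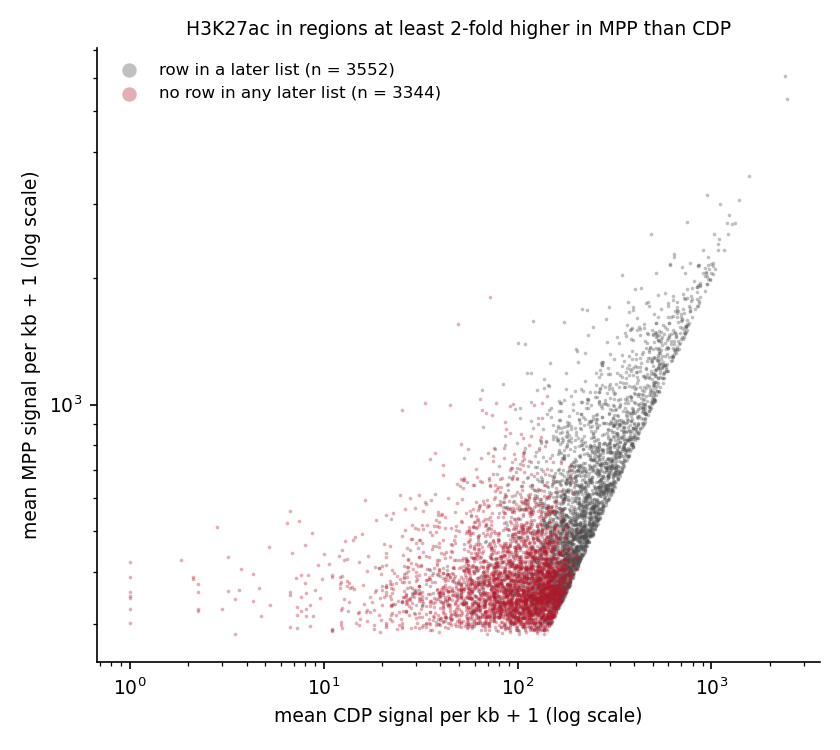
Mean MPP signal per kb against mean CDP signal per kb, 1 added to each and both axes logarithmic, with 1 point per region. Red points are the 3344 unlisted and grey points the 3552 relisted MPP regions. The straight lower right edge is close to the ratio of 2 set by the rule, and the red points end at a CDP signal of 205.8 per kb.

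How much signal remained in CDP went together with whether a later list held the region. Of the 6896 regions that met the signal conditions, which were 11.6% of the autosomal regions of the list, 48.5% were unlisted. Among all autosomal regions listed as higher in MPP the unlisted share was 17.1%. Where the mean CDP signal was at most 50 per kb, 92.7% of such regions were unlisted. The share was 85.4% from 50 to 100 per kb, 66.9% from 100 to 150 and 27.3% from 150 to 200. Between 200 and 250 per kb 3 of 590 regions were unlisted, and 0 of 331 between 250 and 300 and 0 of 775 above 300. The same fall was seen over all regions listed as higher in MPP, whose share was 92.1% in the lowest class and 0 of 18513 in the highest. Without the interval the shares in the 4 lowest classes were 92.8%, 87.8%, 69.5% and 28.3%. CDP signal is among the values that chose the regions, and the later lists have a lower limit on signal, given next. The fall is thus no independent result and was not tested.

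**Figure D3:**
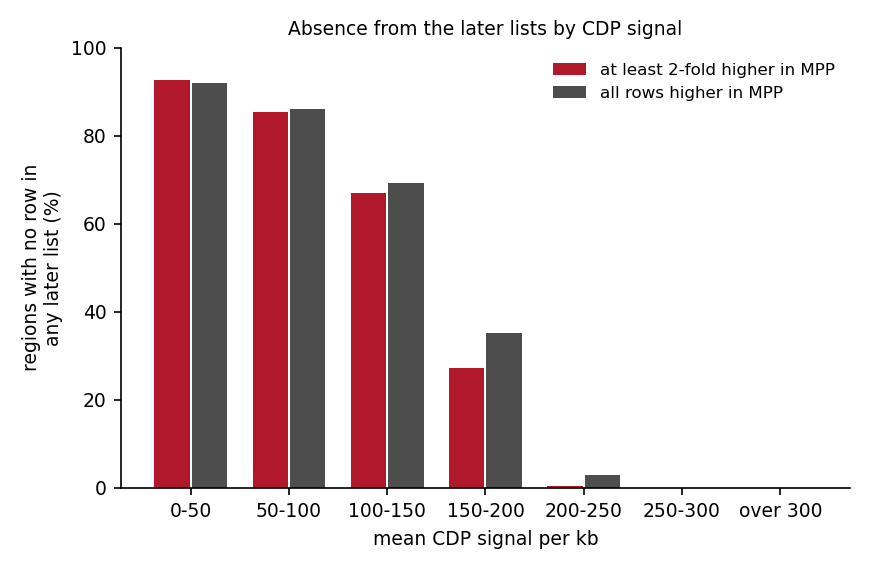
Percentage of regions without a region in any later list, by mean CDP signal per kb, for regions at least 2-fold higher in MPP (red) and for all autosomal regions higher in MPP (grey). Both sets fall from over 90% in the lowest class to 0 from 250 per kb upward. The later lists have a lower limit on signal, so the fall is no independent result.

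The lists themselves had a lower limit on signal. In the CDP and cDC list the higher of the 2 groups had at least 253.3 per kb in every region, and in the CDP and pDC list at least 276.7. Signals were scaled separately in each list, and CDP values of the same library were 1.07 to 1.24 times as large in these lists as in the MPP and CDP list. After applying these factors, the highest mean CDP signal of any unlisted region was 250.1 per kb on the scale of the first list and 221.8 on that of the second. With these median factors all 3344 regions were under the limit of both lists in CDP, as a mean over the whole region. For the CDP and cDC list the margin of the highest region was narrow. The log2 factors of the CDP libraries there had SDs of 0.0585 and 0.0588 across regions, so the order is not certain for regions close to the limit. The lists give no cDC or pDC signal for these regions.

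The opposite direction gave no such regions. All 27260 autosomal regions listed as higher in CDP than MPP overlapped a region of a later list, so that 0% were unlisted. The same was true of the 5344 that met the mirrored conditions, with CDP at least 2-fold above MPP. The mean CDP signal in regions listed as higher in CDP was at least 267.5 per kb. That is above the limit of 253.3 per kb of the CDP and cDC list, even before the scaling factors. The limit that all unlisted regions fell under in CDP was therefore passed by every region of this direction. The 0% is no independent contrast between the directions.

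Part of the regions within the CDP range of the unlisted set were relisted. Of the 5287 regions that met the signal conditions and had a CDP signal no higher than that of the highest unlisted region, 1943 were relisted. They sat higher in that range, with a median of 156.7 per kb, and 55.8% of them were over 150 per kb, against 11.3% of the unlisted regions. Of the 1943, 1208 had an overlapping region in the list of CDP and pDC. For 64.2% of them every such region was listed as higher in pDC, and for 32.5% as higher in CDP. Over all autosomal regions of that list, 49.9% were listed as higher in CDP. In the CDP and cDC list, 1579 had an overlapping region, listed as higher in cDC throughout for 36.2% and as higher in CDP for 58.8%. Of all autosomal regions of that list, 57.2% were listed as higher in CDP. Both the 57.2% and the 49.9% count single regions of a list, not MPP regions. The direction is that of the overlapping region, which may reach beyond the MPP region, as an overlap of 1 bp counted. The 1943 were chosen for a low CDP signal, and each region of the CDP and pDC list has at least 276.7 per kb in its higher group. For the CDP and cDC list it is 253.3 per kb, so the same choice and a similar limit apply there. In the cDC and pDC list, 1114 of the 1943 had an overlapping region. It was listed as higher in pDC throughout for 68.9% and as higher in cDC for 26.3%. Over all autosomal regions of that list, 43.0% were listed as higher in cDC. What the choice and the limits do to these shares was not tested, so the shares do not show a regain in pDC or cDC. The lists also share libraries, so these shares are given side by side only.

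The strongest unlisted signal was on chromosome 11. The region from 87605651 to 87614500 (mm9), 8.85 kb long, carried MPP signals of 18526 and 13369 and CDP signals of 530 and 727. Both MPP values stood far above both CDP values, with a ratio of 25.3. It was also the longest unlisted region. Its neighbour from 87601901 to 87605200 carried 2672 and 2534 in MPP, over 237 and 253 in CDP, a ratio of 10.6. In a smaller region from 87614901 to 87616250 the MPP values were 496 and 404 and the CDP values 6 and 35. The 3 regions lay less than 1 kb apart and formed a stretch of 14.35 kb. The nearest region of any later list was 8.6 kb away. The stretch lies just past the end of the dense interval, where regions were still denser than farther out.

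Further strong regions lay far from anything in the later lists. Chromosome 5 from 58105351 to 58110300, 4.95 kb long, showed MPP signals of 5874 and 3743 over CDP signals of 47 and 195, and the nearest later region was 131.35 kb away. The CDP libraries of this region differed from each other by a larger factor than the MPP libraries did, and both were far below them. On chromosome 14, the region spanning 98566451 to 98569500 reached 3584 and 2571 in MPP, while CDP stood at 94 and 102. It was 406.6 kb from a later region. The region at 91975151 to 91977750 on chromosome 12 reached 3106 and 2141 over 192 and 207, at 273.6 kb. The ratios of these 3 regions were 39.4, 31.1 and 13.1. Chromosome 16 from 85900801 to 85902350, inside the dense interval, measured 2762 and 2060 in MPP, while CDP stood at 104 and 45. In each of these regions the MPP and CDP values were far apart.

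The longest regions were largely the same ones. Added to them were chromosome 13 from 110435401 to 110438550 and chromosome 15 from 85985301 to 85988350. The first, 3.15 kb long, gave 1656 and 1805 in MPP, with CDP at 179 and 280. The other, 3.05 kb long, gave 2444 and 2225, with CDP at 267 and 378. It lies in the dense interval and 0.75 kb from a later region. Both had ratios above the median, at 7.51 and 7.22.

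**Figure D4:**
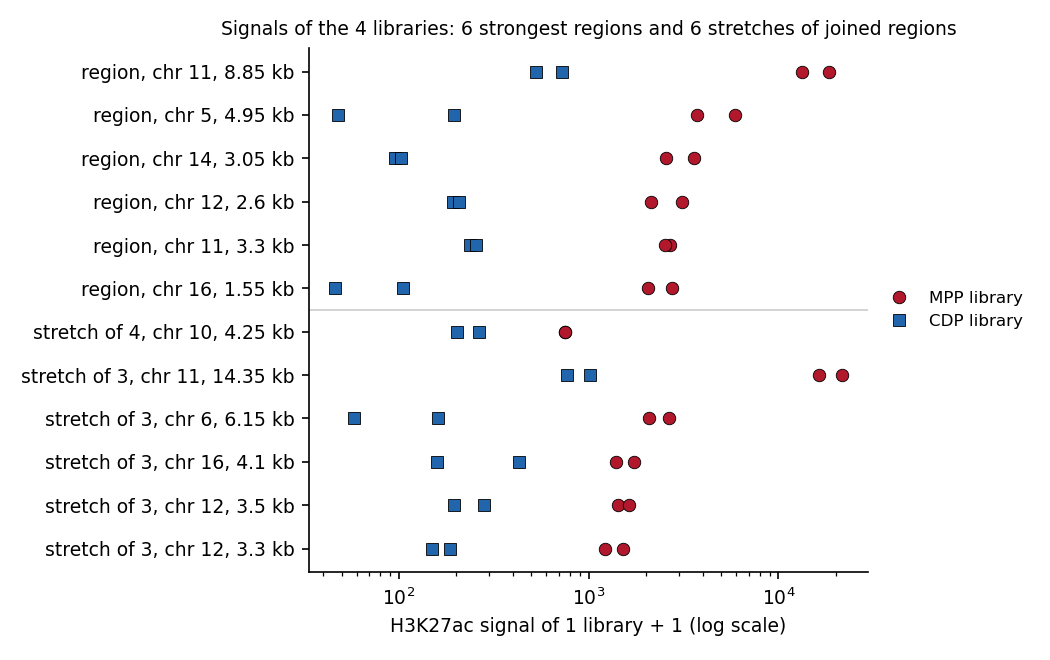
H3K27ac signal of each library, with 1 added and on a logarithmic axis, in the 6 unlisted regions with the highest mean MPP signal (upper rows) and the 6 stretches with the most joined regions (lower rows). Circles are the 2 MPP libraries and squares the 2 CDP libraries. In every row the circles lie to the right of the squares, which the selection of the regions requires.

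Among unlisted regions, the longer classes had larger ratios, on values that also chose the regions. The median ratio was 3.52 in the 1709 regions of up to 500 bp, 3.9 in the 1113 from 550 to 1000 bp and 5.15 in the 480 from 1050 to 2000 bp. In the 42 longer ones it was 7.19. Per kb, the median MPP signal rose from 344 in the shortest class to 554 in the longest, whereas CDP had 96.7 and 81. In relisted regions the median ratio was 2.56 in the shortest and 2.7 in the longest class, and CDP signal per kb was higher in the longest class, with 306 against 139. Without the interval the medians of the unlisted classes were 3.48, 3.9, 5.13 and 7.28. All unlisted regions lay under the lists' limit in CDP, at no more than 205.8 per kb, whatever their length. The minimum on mean MPP signal was set per region and not per kb. Both bear on the classes differently, and the difference between lengths was not tested.

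The largest ratios came from small regions with almost no signal in CDP. Chromosome 9 from 69563501 to 69564100 gave MPP values of 237 and 273 with CDP values of 1 and 0. On chromosome 4, the region 104744151 to 104744950 gave 332 and 264 over 0 and 2. On chromosome 6, the region 48618401 to 48618950 gave 358 and 204 over 1 and 1. On the scale of signal plus 1 the ratios were 171, 150 and 141, but they rest on CDP values at the bottom of the scale. Next came chromosome 12 at 85847201 to 85847650, inside the dense interval, where MPP gave 234 and 114 and CDP 0 and 1. At 76611751 to 76612200 on chromosome 5 MPP gave 174 and 170 and CDP 1 and 0. At 98389701 to 98390150 on chromosome 9 MPP gave 204 and 185 and CDP 2 and 0. In 7 further regions both CDP libraries were listed at 0, and no ratio is given. The strongest of these, on chromosome 1 from 171612701 to 171613400, reached 295 and 293 in MPP.

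At the threshold, regions just inside and just outside had similar values. The lowest ratio among unlisted regions was 2, on chromosome 10 from 59056801 to 59057150 (MPP 134 and 102, CDP 88 and 29). The same ratio of 2 was found on chromosome 17 at 5926451 to 5927050 (MPP 248 and 200, CDP 130 and 93) and chromosome 5 at 114319501 to 114319900 (MPP 151 and 135, CDP 47 and 95). Just outside, with a ratio of 1.99, chromosome 6 held 58866301 to 58866850 (MPP 209 and 186, CDP 102 and 95) and 134154001 to 134154450 (MPP 179 and 150, CDP 66 and 98). Chromosome 15 at 63483901 to 63484400 (MPP 148 and 179, CDP 78 and 85) was the next. In all, 987 unlisted regions had a ratio under 3.

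Most unlisted regions were single. Joining those less than 1 kb apart gave 3151 stretches, of which 2975 held 1 region, 160 held 2, 15 held 3 and 1 held 4. Another region of their own list lay within 1 kb for 942, or 28.2%, near the 31.7% of relisted regions. Over all regions listed as higher in MPP, with no condition on signal, it was 61.2%. The stretch of 4, on chromosome 10 from 20711651 to 20715900, had summed signals of 747 and 754 in MPP and of 202 and 265 in CDP, and its ratio of 3.2 was below the median of all unlisted regions. On chromosome 6 from 88143651 to 88149800 the 3 regions of a stretch summed to 2650 and 2082 in MPP but to 160 and 57 in CDP, a ratio of 21.6. Its 3 parts had ratios of 19.4, 19.4 and 32.8, so each part fell steeply, and the nearest later region was 94.8 kb away. Chromosome 16 from 16855351 to 16859450 summed to 1732 and 1395 in MPP. Its CDP libraries, at 158 and 427, were more than 2-fold apart. Chromosome 12 held a pair of such stretches. At 71332901 to 71336400 the MPP sums were 1435 and 1626 and the CDP sums 279 and 195. At 32779701 to 32783000 the MPP sums were 1222 and 1513 and the CDP sums 186 and 149.

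The distance to the later lists varied over a wide range. The nearest later region was a median of 5300 bp away, and 6450 bp outside the interval. It touched 55 unlisted regions without overlap, such as chromosome 10 at 98732751 to 98733150 (MPP 107 and 184, CDP 77 and 37). A later region lay closer than 1 kb for 637 of the 3344, and for 407 of the 2951 outside the interval, or 13.8%. It lay at 100 kb or more for 163 of the 3344, or 4.87%. Of the 55 that touched one, 39 lay in the dense interval. The farthest, on chromosome 8 from 30147851 to 30148300 at 1772.95 kb, carried 192 and 122 in MPP, with each CDP library listed at 0. Next were chromosome 10 at 102831401 to 102831800 (MPP 170 and 140, CDP 7 and 13), 1647.55 kb away, and chromosome 1 at 3435701 to 3436050 (MPP 114 and 99, CDP 11 and 4), 1328.45 kb away.

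**Figure D5:**
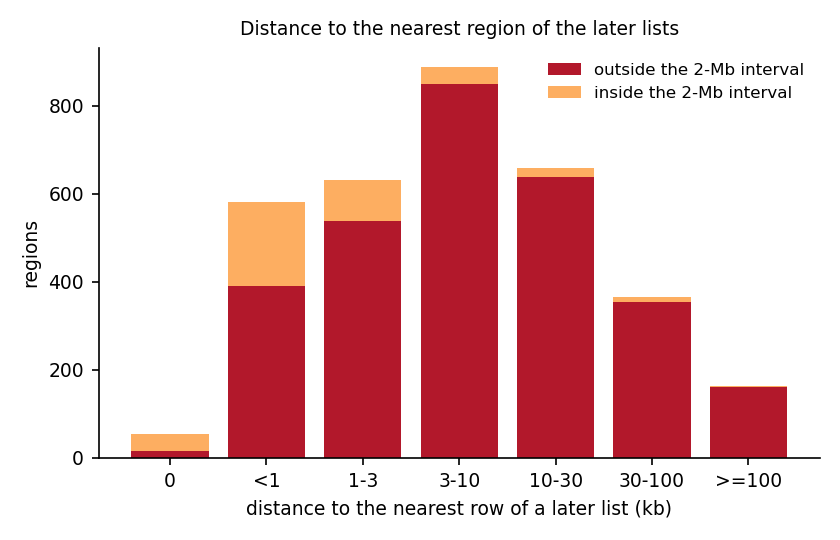
Number of unlisted MPP regions by distance in kb to the nearest region of a later list, with 0 for regions that touch one. Red bars are regions outside and orange bars regions inside the 2-Mb interval. The class from 3 to 10 kb is the largest, with 888 regions, and the regions of the interval gather below 3 kb.

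Regions farther from the later lists had steeper drops. Outside the interval, the median ratio was 3.09 where a later region lay closer than 1 kb without touching, 3.95 from 3 to 10 kb, 4.56 from 30 to 100 kb and 6.17 from 100 kb on. The median CDP signal fell along these classes from 118 to 65.4 per kb. Median lengths ran only from 500 to 600 bp. With the interval included, the ratios of the same classes were 3.23, 3.96, 4.57 and 6.06. Ratio and CDP signal are among the values that chose the regions, and the later lists also took part in the rule. These values are a description across regions that share libraries, and the trend was not tested.

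The surroundings of unlisted regions leaned the same way in their own list. Within 10 kb of an unlisted region and outside the interval, 3554 other regions of the MPP and CDP list were found, and 67.3% of them were listed as higher in MPP. Over all other regions of the list outside the interval it was 50.9%. In the CDP and cDC list 65.4% of 3973 neighbours were higher in CDP, against 55.7% of all regions. In the CDP and pDC list 55.1% of 3671 neighbours were higher in CDP, against 48.9%. In the cDC and pDC list 41.2% of 3101 neighbours were higher in cDC, against 43.4%. With the interval included, the shares among neighbours were 64.5%, 69.1%, 58.7% and 39.0%, and those over all regions 51.6%, 57.2%, 49.9% and 43.0%. The lists share libraries and neighbouring regions are not independent, so no test is given.

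Unlisted regions were found on every autosome in similar proportion. They were 53.2% of the regions that met the signal conditions on chromosome 10 outside the interval, the highest share, and 43.6% on chromosome 11, the lowest. By number, with the interval included, chromosome 10 had 246 and chromosome 18 had 99. Outside the interval chromosome 10 had 219, chromosome 2 had 225 and chromosome 18 had 98. With the interval included, the median ratio of a chromosome ran from 3.54 on chromosome 17 to 4.18 on chromosomes 2 and 18.

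The 2 libraries of a cell type had a lower correlation over unlisted than over relisted regions. Across regions, which share the libraries and are not replicates, the log2 signals of the MPP libraries had a Pearson's r of 0.828 in the 3344 unlisted and 0.959 in the 3552 relisted regions. For the CDP libraries it was 0.594 and 0.896, with signals near the bottom of the scale in the unlisted set. The correlation also depends on the range of signals, which was narrower in unlisted regions. Quartiles of their mean MPP signal were 137 and 332, against 286.5 and 1229.5 in relisted regions. The median SD between the 2 libraries on the log2 scale was 0.254 for MPP and 0.459 for CDP in unlisted regions, against a median log2 ratio of 1.97. In relisted regions the SD was 0.214 and 0.291. Over all regions listed as higher in MPP, the SD for MPP was 0.272 although r was 0.957. Outside the interval, r was 0.862 for MPP and 0.636 for CDP.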

How the data were processed

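Per the labels' protocols, chromatin fragments of 200 to 400 bp were immunoprecipitated for H3K27ac. The submitters' processing notes name BWA 0.6.1 and the mouse build mm9. THOR, which calls differential peaks, is named in the title. The authors' deposited lists give bounds, a direction, 2 + 2 library signals and −log10 of a p-value per region. These deposited values have another unit than counts: they are whole-number signals on a scale of their own in each library and list, so levels were compared within a list. How they were scaled, filtered or corrected is not given in the sources used here.

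The order of groups was taken from the list names and checked on regions with identical bounds. CDP values of the same place differed between lists by a constant factor, the SD of the log2 factor being 0.0648 or less for the 4 matching pairs and 0.613 or more for the other 28. MPP is placed by the list name. Libraries are named by their order within a list.

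Ratios are (mean MPP + 1)/(mean CDP + 1). Overlap of 1 bp counted. Coordinates are 1-based. Named regions are the 6 with the highest mean MPP signal, the 6 with the largest ratio and a CDP signal above 0, the 6 stretches with the most regions, the 6 longest, 3 on each side of the ratio threshold, and those nearest to and farthest from a later region. The regions and this rule were chosen with earlier results of these data known. Planned gene lists, motifs and sequences needed a genome of build mm9 and were not used here. The log2 ratio, the overlap and the joining were checked on simulated regions with known answers. The later lists and their limit on signal were not simulated. Alternatives covered the pseudocount, scaling, p-value, libraries, signal and length minimums, overlap and joining. Leaving out the dense interval, the fullest 2 Mb in steps of 100 kb, was added after seeing the data. Scripts ran in Python 3.11.15 with pandas 2.3.3, numpy 2.4.6 and, for plots, matplotlib 3.10.9.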

Additional observations from a re-analysis of the deposited data

How the results depend on the processing

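The count of 3344 unlisted regions stayed within 1.5 times under each alternative that was run except 2: it was 1616 with a mean MPP signal of at least 200, and 1898 with a length of at least 500 bp. Without each library in turn it ran from 2985 to 3887. Without the dense interval it was 2951. The count of stretches ran from 2818 to 3669 without a library. The median log2 ratio of 1.97 ran from 1.9 to 2.13 when the regions were selected again under each alternative. The rule holds each region's log2 ratio at 1 or more, so this range says little about stability. Making the autosomal totals equal shifted the median log2 ratio of all autosomal regions by -0.137 and, for the same 3344 regions, gave a median of 1.85, with 3160 of them at 1 or more.

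The unlisted share was 48.5%, with a 95% Wilson interval of 47.3 to 49.7% for counting error only. That interval takes the regions as independent, which they are not. The share fell outside it in 12 alternatives and inside it in 3. It was 52.3% with equal totals, 46.6% with a −log10 p of at least 10, 54.8% and 34.9% with a mean MPP minimum of 50 and 200, and 37.9% from 500 bp on. It was 39.3% when a later region within 1 kb counted as overlap, 64.8% when 50% of the region had to be covered, and 59.4% with later regions of −log10 p of at least 10 only. Without each library in turn it ran from 39.7 to 49.9%, the lowest without the second-listed CDP library. Other windows around start sites and other sequence spans for motifs needed a genome of the files' build and were not run. No paired analysis was possible because the values carry no replicate number and come from no test. Depth is unknown, and the limit on signal in the lists bounds what could be listed.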

Other observations

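Several neighbourhoods held many unlisted regions without forming 1 stretch. Joining regions less than 50 kb apart outside the dense interval, a choice made after the data were seen, gave 8 on chromosome 12 from 32684801 to 32783000. Their summed signals were 2694 and 3018 in the MPP libraries against 433 and 461 in CDP, a ratio of 6.38. Chromosome 11 from 107255051 to 107372350 also held 8, with 2842 and 2338 against 454 and 318. Chromosome 7 from 75257451 to 75334950 held 7 over 77.5 kb, where MPP summed to 5560 and 5906 and CDP to 863 and 891, the highest MPP sum of these 3. Chromosome 3 from 121825301 to 121912050 held 7 where MPP summed to 2559 and 2785 and CDP to 507 and 505. No later region lay within 34.6 kb of any of them. The neighbourhoods named before it, on chromosomes 12, 11 and 7, had a later region at 0.85, 0.95 and 2.75 kb. Chromosome 12 from 78157651 to 78241550 and chromosome 14 from 8658601 to 8762650 also held 7 each, with a later region at 1.6 and 0.3 kb.

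The X chromosome is outside the rule. Of its 1127 regions in the MPP and CDP list, 104 met the same signal conditions and 44 of these, 42.3%, had no region in a later list, compared with 48.5% on the autosomes. None of the 63 regions on the Y chromosome met the conditions. Sex is not given in the labels.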
